A study of Mus musculus with 16 samples.

Results

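A set of 10 genes that mark pluripotent mouse cells were followed across 16 microarrays of sorted midbrain dopaminergic neuron preparations. The genes were Nanog, Pou5f1, Dppa5a, Zfp42, Esrrb, Tdgf1, Utf1, Klf4, Sall4 and Lin28a, which are 10 of the 19938 genes measured. They were taken by gene symbol, and each was read by 1 probe set that carries a single symbol. The study compared neurons made from induced pluripotent stem cells (iPSCs, somatic cells reprogrammed to a pluripotent state) with neurons taken from the embryo.

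The treated group held 5 arrays of iPSC-derived cells that were differentiated with recombinant human WNT1, a Wnt ligand, and recombinant human DKK3, a secreted Dickkopf-family protein. The control group held 5 arrays of iPSC-derived cells differentiated without these 2 proteins. Primary cells came from the ventral midbrain of E14.5 embryos (3 arrays) and E13.5 embryos (3 arrays). The arrays within a stage are technical replicates by their titles, and each stage therefore entered the tests as 1 sample. All groups carried the Pitx3GFP/+ genotype, in which a green fluorescent protein allele reports the dopaminergic transcription factor gene Pitx3, on the strain background C57BL/6 x 129/Ola (mixed). The design text describes sorting for GFP in all cells, while the sample labels name the sort for the primary cells. The number of iPSC lines or clones, the reprogramming method and the days in culture are not given in the sources used here. The labels call the iPSC-derived arrays biological replicates without naming separate lines or cultures. The p-values below therefore set differences against the spread between these samples only.

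Pluripotent cells of the early embryo and embryonic stem cells are held in their state by a network of transcription factors around OCT4 (the product of Pou5f1), SOX2 and NANOG, which bind many of the same regulatory regions. Naive factors such as ESRRB and KLF4 join this network in mouse cells, and surface and RNA-binding proteins such as CRIPTO (Tdgf1) and LIN28A accompany it. The network is shut down as cells commit to the neural lineage, and cells that keep it can form teratomas when grafted, which is why these transcripts are watched in stem cell-derived neurons.

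The promoters of these genes are shown because the octamer and SOX motifs read by OCT4 and SOX2 are the classical link between the members. RefSeq promoters on GRCm38.p6 were found for 8 of the 10 members, with 11 start sites, and Dppa5a and Sall4 had none in the table. Each sequence below is the 250 bases before a start site, read 5′ to 3′ on the gene's strand, with matched motif letters in capitals. The first start site is used for Nanog and Pou5f1.
Nanog, chr6:122707239-122707488, plus strand: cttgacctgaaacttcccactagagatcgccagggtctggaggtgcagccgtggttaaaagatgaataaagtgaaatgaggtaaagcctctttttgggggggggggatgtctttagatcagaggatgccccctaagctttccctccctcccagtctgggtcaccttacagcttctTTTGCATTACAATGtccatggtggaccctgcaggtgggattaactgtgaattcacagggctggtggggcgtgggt
Zfp42, chr8:43307010-43307259, minus strand: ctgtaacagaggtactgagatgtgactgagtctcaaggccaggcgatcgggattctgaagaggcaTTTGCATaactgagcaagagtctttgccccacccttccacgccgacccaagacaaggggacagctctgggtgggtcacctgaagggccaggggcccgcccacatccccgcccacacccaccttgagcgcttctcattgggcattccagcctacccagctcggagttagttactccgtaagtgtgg
Pou5f1, chr17:35505782-35506031, plus strand: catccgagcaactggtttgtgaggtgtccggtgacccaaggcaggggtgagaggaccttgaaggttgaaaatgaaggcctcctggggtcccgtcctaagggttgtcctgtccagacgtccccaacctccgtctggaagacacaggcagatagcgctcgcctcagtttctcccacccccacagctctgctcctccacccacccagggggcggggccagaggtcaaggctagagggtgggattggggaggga
Tdgf1, chr9:110946159-110946408, minus strand: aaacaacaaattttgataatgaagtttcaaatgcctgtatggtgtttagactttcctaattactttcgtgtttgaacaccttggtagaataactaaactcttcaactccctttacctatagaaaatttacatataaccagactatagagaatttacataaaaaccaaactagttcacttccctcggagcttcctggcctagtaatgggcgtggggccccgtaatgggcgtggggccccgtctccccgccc

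The letters searched, on both strands, were ATGCAAA (octamer core), CATTGT (SOX element) and their composite, which is the SOX element, any 1 base and then the octamer core, and so contains both of the others. The Nanog promoter held the composite on the opposite strand, 75 to 62 bases before its first start site. Across all 32851 RefSeq promoters of the same length the composite was found in 2, which is 0.00609%, and both belonged to Nanog, the 1 gene of 27025 with a match. The Zfp42 promoter held the octamer core on the opposite strand, 185 to 179 bases before the start site, a motif found in 4.12% of the promoters. The SOX element, found in 10.7% of the promoters, stood 96 to 91 bases before the Lin28a start site and 158 to 153 bases before the second Pou5f1 start site. Of the 8 members searched, 4 had a match at a start site, and 4 had none of these letters (Esrrb, Tdgf1, Utf1 and Klf4). The printed Pou5f1 window had none either. Counted by gene, 4.65% of all genes had the octamer core and 12.2% the SOX element. The share of all genes with any of these motifs was not counted. These matches are descriptions of sequence, and binding was not measured here.

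Values are deposited log2 levels, so a difference of 1 is a doubling, and levels of different genes are not set against each other because each comes from its own probe set. Array medians over all probe sets lay between 5.85 and 6.02, and lower quartiles between 4.32 and 4.695. The mean log2 level of 10 dopaminergic markers was 7.83 on treated array 5, with 5.74 to 6.05 on treated arrays 1 to 4, and 7.50 on control array 5, with 5.84 to 6.00 on control arrays 1 to 4. The primary arrays gave 9.61 to 10.04. Th, the rate-limiting enzyme of dopamine synthesis, gave 5.93, 5.29, 5.79, 5.56 and 9.22 on treated arrays 1 to 5 and 6.17, 5.745, 5.34, 5.899 and 8.52 on control arrays 1 to 5. It gave 10.52 to 11.53 on the 6 primary arrays. Thus 8 of the 10 iPSC-derived arrays lacked the Th level of the neurons that their label names. The arrays numbered 5 stood apart in both groups, with Th still below every primary array. For 7 of the 10 markers the 8 other arrays all lay below both arrays numbered 5, against 11.5% of all genes. Pitx3, the gene of the reporter, did not split so, at 6.06 on treated and 6.16 on control array 5 against 5.60 to 6.17 on the others. Foxa2 and Lmx1b did not either. Results that rest on the arrays numbered 5 are therefore given with and without them.

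**Figure D1:**
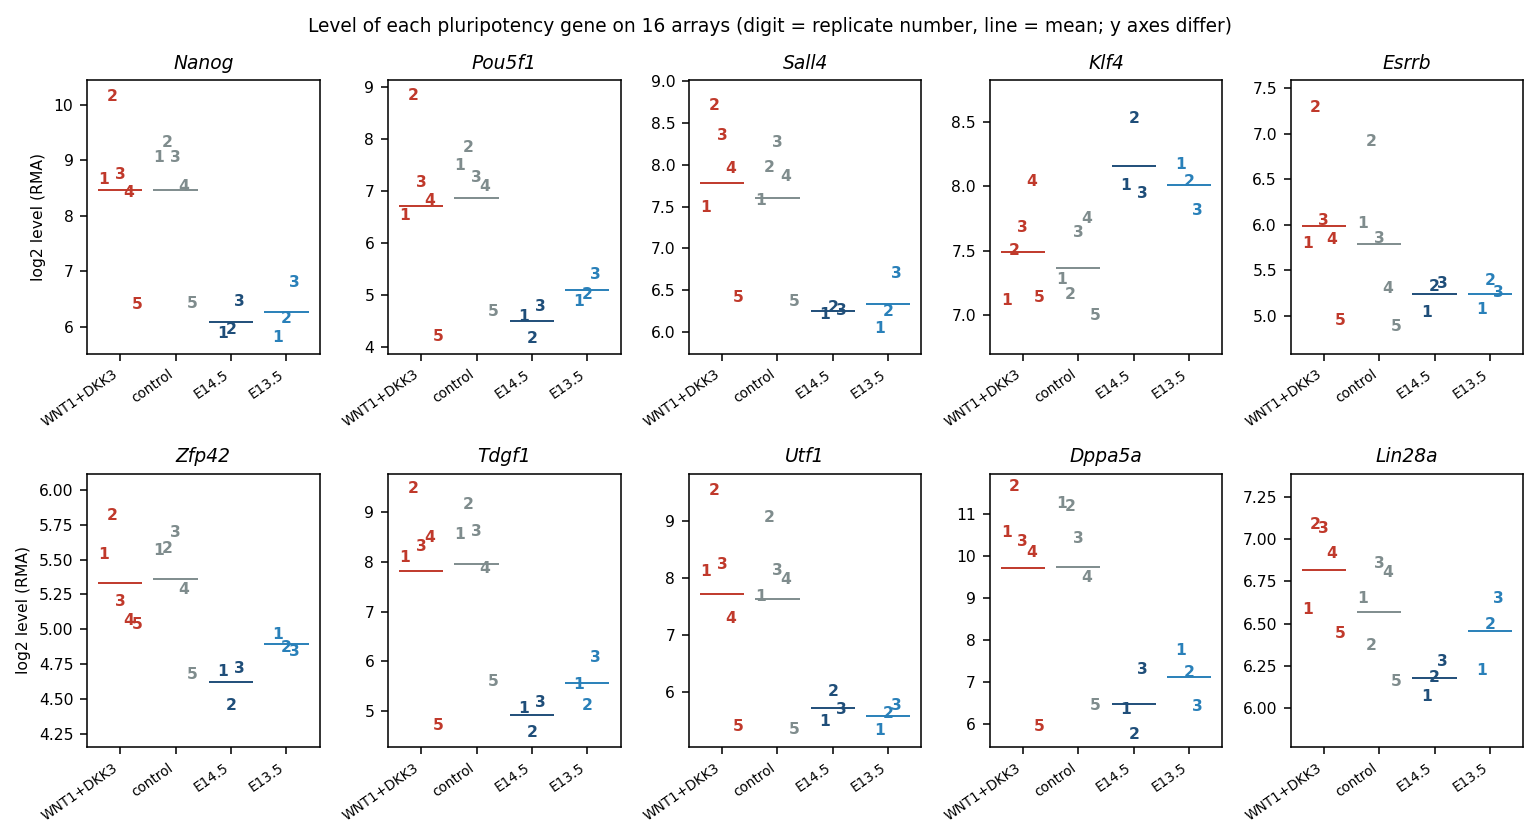
Deposited log2 level (y axis, RMA) of each of the 10 genes in treated (WNT1+DKK3), control, E14.5 and E13.5 arrays (x axis). Each digit is 1 array and names its replicate number, lines are group means, and y axes differ between panels. For Nanog, the arrays numbered 1 to 4 of both iPSC-derived groups lie between 8.42 and 10.14 and those numbered 5 lie at 6.40 and 6.42, inside the range of the primary arrays.

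Nanog, Pou5f1 and Sall4 encode core transcription factors of the network. Nanog, a homeodomain factor that stabilises self-renewal, gave 8.65, 10.14, 8.74, 8.42 and 6.40 on treated arrays 1 to 5 and 9.05, 9.32, 9.05, 8.52 and 6.42 on control arrays 1 to 5. The primary arrays gave 5.88, 5.96 and 6.46 at E14.5 and 5.82, 6.16 and 6.81 at E13.5. The 8 iPSC-derived arrays numbered 1 to 4 all lay above every primary array, while both arrays numbered 5 lay inside the primary range.

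Pou5f1 encodes OCT4, the POU-domain factor without which the inner cell mass is not pluripotent. It gave 6.525, 8.84, 7.16, 6.83 and 4.20 on treated arrays 1 to 5 and 7.49, 7.83, 7.25, 7.10 and 4.68 on control arrays 1 to 5. The primary arrays gave 4.58, 4.17 and 4.77 at E14.5 and 4.88, 5.00 and 5.40 at E13.5, below the median of their own array in each case. Again only the arrays numbered 5 overlapped the primary arrays.

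Sall4, a zinc-finger factor that works with OCT4 and is also used in germ and limb cells, showed the same split with a smaller range. Its levels were 7.49, 8.71, 8.345, 7.96 and 6.41 on treated arrays 1 to 5 and 7.57, 7.97, 8.26, 7.86 and 6.37 on control arrays 1 to 5. The 6 primary arrays lay between 6.04 and 6.70, with a mean of 6.26 at E14.5 and 6.33 at E13.5. Nanog and Pou5f1 have processed pseudogenes in the mouse genome, and whether these add to the probe set signals was not tested.

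Klf4, Esrrb and Zfp42 belong to the naive network of mouse embryonic stem cells. Esrrb, an orphan nuclear receptor, gave 5.80, 7.28, 6.045, 5.84 and 4.955 on treated arrays 1 to 5 and 6.01, 6.91, 5.855, 5.30 and 4.89 on control arrays 1 to 5. The 6 primary arrays lay between 5.035 and 5.39. Esrrb was highest on the array numbered 2 in both groups, while control array 4 lay inside the primary range and both arrays numbered 5 below it. It exceeded the array median on 4 of the 8 arrays numbered 1 to 4.

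Zfp42 encodes REX1, a zinc-finger protein widely used as a mark of naive cells. It gave 5.54, 5.82, 5.20, 5.06 and 5.03 on treated arrays 1 to 5 and 5.57, 5.58, 5.70, 5.29 and 4.675 on control arrays 1 to 5. The primary arrays lay between 4.45 and 4.965. Zfp42 lay below the array median on all 16 arrays, so its differences were between dim signals.

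Klf4 is a Krüppel-like factor that is also active in epithelia, fibroblasts and neurons, and it was the member that ran the other way. It gave 7.11, 7.50, 7.68, 8.03 and 7.14 on treated arrays 1 to 5 and 7.27, 7.16, 7.64, 7.75 and 7.001 on control arrays 1 to 5. The primary arrays gave 8.005, 8.52 and 7.945 at E14.5 and 8.17, 8.04 and 7.81 at E13.5. On 9 of the 10 iPSC-derived arrays Klf4 lay below all primary arrays, and treated array 4 overlapped them. Klf4 and Pou5f1 are among the classical reprogramming factors, and no label states which were used.

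Tdgf1 encodes CRIPTO, the cell-surface co-receptor of the Nodal ligand. Its levels were 8.10, 9.48, 8.32, 8.49 and 4.71 on treated arrays 1 to 5 and 8.56, 9.165, 8.61, 7.87 and 5.59 on control arrays 1 to 5. The primary arrays lay between 4.57 and 5.17 at E14.5 and between 5.12 and 6.075 at E13.5. The gap between the arrays numbered 5 and the lowest of the other iPSC-derived arrays was wider than the whole range of the primary arrays.

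Utf1 encodes a chromatin-associated factor of embryonic stem cells. It gave 8.12, 9.53, 8.24, 7.29 and 5.39 on treated arrays 1 to 5 and 7.68, 9.06, 8.12, 7.97 and 5.34 on control arrays 1 to 5. The 6 primary arrays lay between 5.32 and 6.00. The arrays numbered 1 to 4 lay above all of them, and treated array 4 was the lowest of those 8.

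Dppa5a and Lin28a encode RNA-binding proteins. Dppa5a, a KH-domain protein of early embryos and germ cells, gave 10.545, 11.65, 10.345, 10.085 and 5.95 on treated arrays 1 to 5 and 11.23, 11.18, 10.405, 9.48 and 6.44 on control arrays 1 to 5. The primary arrays lay between 5.76 and 7.31 at E14.5 and between 6.42 and 7.75 at E13.5. This was the member with the widest gap between the arrays numbered 1 to 4 and those numbered 5.

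Lin28a, which blocks maturation of the let-7 microRNAs and is also made by early neural progenitors, varied least among the iPSC-derived arrays. It gave 6.58, 7.09, 7.06, 6.91 and 6.44 on treated arrays 1 to 5 and 6.65, 6.37, 6.86, 6.81 and 6.15 on control arrays 1 to 5. The 6 primary arrays lay between 6.07 and 6.65 and overlapped both groups.

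Over the 10 iPSC-derived arrays, treated array 2 was the highest for 9 members, and Klf4 was highest on treated array 4. All 10 members were lowest on an array numbered 5, with 4 on treated array 5 and 6 on control array 5. On the 8 arrays numbered 1 to 4, 8 members stayed above the array median, the exceptions being Zfp42 and Esrrb. For these highest, lowest and median counts the shares of all genes were not counted, so they describe the members and are no result about them. In these 8 arrays 7 members lay above all 6 primary arrays (Nanog, Pou5f1, Dppa5a, Zfp42, Tdgf1, Utf1 and Sall4), a pattern shown by 17.3% of all genes. The same 7 members and Esrrb lay above both arrays numbered 5, against 11.7% of all genes. No member lay below all primary arrays or below both arrays numbered 5, against 15% and 11.5% of all genes. Both arrays numbered 5 fell inside the primary range for Nanog, Pou5f1, Dppa5a, Tdgf1, Utf1, Sall4 and Lin28a. The share of all genes that fell inside it was not counted, so this describes the members only. The cells that gave these signals were not identified. In bulk RNA, fewer expressing cells and less RNA per cell cannot be told apart.

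Levels of most members differed between replicate numbers. A limma F test of the replicate number beside treatment, over the 10 iPSC-derived arrays with Benjamini-Hochberg adjustment, called 8 of the 10 members, against 15.4% of all genes. The adjusted p was 9.09e-05 for Dppa5a, 5.04e-04 for Nanog, 3.54e-04 for Tdgf1 and 0.00118 for Pou5f1, and it was 0.0706 for Zfp42 and 0.128 for Lin28a. The arrays numbered 5 had been seen to stand apart before this test was chosen. Without both of them 2 of the 10 members passed, Esrrb (adjusted p = 0.0235) and Utf1 (adjusted p = 0.0464), against 2.21% of all genes. For Esrrb the 2 highest arrays were then those numbered 2 in both groups.

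Whether WNT1 and DKK3 changed these genes was asked by setting the 5 treated arrays against the 5 control arrays. No member passed the test, with levels of 8.47 ± 1.34 on treated arrays and 8.47 ± 1.18 on control arrays for Nanog, 6.71 ± 1.67 and 6.87 ± 1.26 for Pou5f1, and 9.71 ± 2.19 and 9.75 ± 1.98 for Dppa5a in the same order (SD, n = 5 each). The limma fit with Benjamini-Hochberg adjustment called 0 of the 10 members in either direction, as it did 0% of the 19938 genes, and 0 members and 300 genes had an unadjusted p under 0.05. The smallest adjusted p over all genes was 0.753.

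The treated minus control difference was -0.003 for Nanog, with a 95% interval from -1.51 to 1.51, and -0.16 for Pou5f1, from -1.92 to 1.60. The widest interval was that of Dppa5a, from -2.52 to 2.46 around -0.03, and the narrowest that of Lin28a, from -0.13 to 0.63 around 0.25. Over the 10 members the median difference was 0.04, and over all genes it was 0.02. Without both arrays numbered 5 the intervals narrowed to -0.77 to 0.77 for Nanog and -1.05 to 0.89 for Pou5f1. The replicate number was no term in these fits, so spread shared by equal numbers widened their intervals. With the number as a term and all 10 arrays, the interval for Nanog was -0.36 to 0.35, though equal numbers are not said to be pairs. A missed threshold does not show that the groups were alike.

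The iPSC-derived groups were each set against the primary neurons in 1 limma fit of 12 samples, in which the technical arrays of a stage were averaged. Both comparisons share the same 2 primary samples, and the spread in the fit rests mostly on the iPSC-derived arrays. For treated cells the fit called 0 of the 10 members higher and 0 lower, beside 19.9% and 21.3% of all genes. In either direction, 5 of the 10 members had an unadjusted p under 0.05, beside 10100 of the 19938 genes. For control cells it called 0 members higher and 1 lower, beside 19.3% and 22.5% of all genes. Again 5 members had an unadjusted p under 0.05, beside 10307 of the 19938 genes, so these counts of 5 are no result about the members. The 1 member called was Klf4.

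Nanog was 2.29 higher in treated cells than in primary neurons (95% interval 0.41 to 4.17, adjusted p = 0.0513), with means of 8.47 ± 1.34 (SD, n = 5) and 6.18 (mean of 2 stage samples). In control cells Nanog was 2.29 higher (0.41 to 4.18, adjusted p = 0.0502), and its adjusted p ran from 2.72e-06 to 0.191 over 19 alternative settings. Dppa5a was 2.91 higher in treated cells (-0.20 to 6.02, adjusted p = 0.12) and 2.94 higher in control cells (-0.17 to 6.05, adjusted p = 0.114). Tdgf1 was 2.57 higher in treated cells (adjusted p = 0.0826) and 2.71 higher in control cells (adjusted p = 0.0682). None of these passed the threshold of 0.05, with both arrays numbered 5 at the primary level.

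Klf4 fell in control cells, at 7.37 ± 0.32 against 8.08 in primary neurons, a difference of -0.72 (95% interval -1.27 to -0.16, adjusted p = 0.0401). In treated cells the difference was -0.59 (adjusted p = 0.0821), at 7.49 ± 0.39. Klf4 was called lower in treated cells in 3 of 19 alternatives, 1 of them without treated array 4. That array had the highest treated level and overlapped the primary arrays. Leaving it out could only widen the difference, so that call is no support for it. The control call was lost in 7 of 19 alternatives, among them leaving out control array 1, 2 or 5, with adjusted p values from 5.18e-04 to 0.196 over the alternatives. The median difference over the 10 members was 1.70 in treated cells and 1.65 in control cells, beside -0.09 and -0.11 over all genes.

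**Figure D2:**
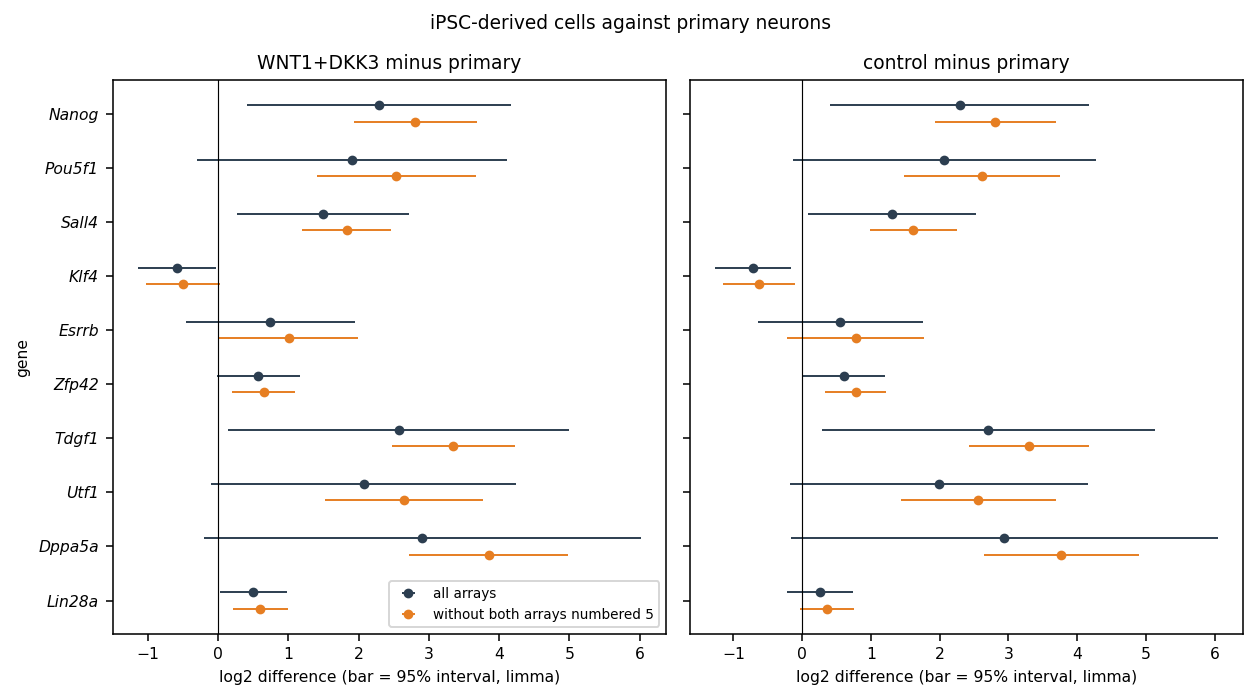
Difference in log2 level from the primary neurons (x axis) of each of the 10 genes (y axis) for treated (WNT1+DKK3) cells on the left and control cells on the right, with 95% intervals from limma. Dark points use all arrays, and orange points leave out both arrays numbered 5. Intervals that leave out these arrays are narrower, and for Nanog in treated cells the estimate is 2.81 (1.93 to 3.69) in place of 2.29 (0.41 to 4.17).

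Without both arrays numbered 5 22.9% of all genes were called higher and 22.8% lower in treated cells, and 22.5% higher and 23.6% lower in control cells. In treated cells 8 of the 10 members were then higher and 0 lower, and in control cells 7 were higher and 0 lower. Both sets held Nanog, Pou5f1, Dppa5a, Zfp42, Tdgf1, Utf1 and Sall4, and the treated set also held Lin28a (0.60, adjusted p = 0.018). Leaving out treated array 5 alone gave 7 members higher in treated cells and 5 in control cells, and leaving out control array 5 alone gave 4 in treated cells and 7 in control cells. Leaving out treated array 2 gave 1 in control cells, Nanog.

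In this setting Tdgf1 was 3.35 higher in treated cells (adjusted p = 4.41e-05) and 3.30 higher in control cells (adjusted p = 4.87e-05). Dppa5a was 3.85 higher in treated cells (adjusted p = 1.05e-04) and 3.77 higher in control cells (adjusted p = 1.22e-04). Pou5f1 was 2.54 higher in treated cells (adjusted p = 0.00202) and 2.62 higher in control cells (adjusted p = 0.00166). Zfp42, the dim member, was 0.65 higher in treated cells (adjusted p = 0.0227) and 0.78 higher in control cells (adjusted p = 0.00919).

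Esrrb gave 1.00 in treated cells (adjusted p = 0.0903) and 0.78 in control cells (adjusted p = 0.174). Klf4 lost its call in control cells, at -0.62 (adjusted p = 0.0502), and gave -0.50 in treated cells (adjusted p = 0.105). The choice to leave these arrays out rests on their dopaminergic and pluripotency levels and was made with those levels known, so it describes the other 8 arrays and is no independent test.

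Between the stages, no test was possible because each is 1 sample. The rule used was a mean difference of at least 1 with no overlap between the 3 arrays of each stage, which 35 genes (0.176%) met as higher and 13 genes (0.0652%) met as lower at E14.5. No member met it in either direction. The largest differences were those of Dppa5a, at 6.48 in E14.5 neurons against 7.13 in E13.5 neurons, Tdgf1, at 4.93 against 5.57, and Pou5f1, at 4.51 against 5.09, all within 1 on the log2 scale. For Dppa5a the arrays of the stages overlapped, and without E14.5 array 3 it was the 1 member that met the rule, as lower.

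Other genes of the pluripotent state were read from 5 lists. No gene of any list was called between treated and control cells. Against primary neurons, 19.9% of all genes were called higher and 21.3% lower in treated cells. In control cells the shares were 19.3% higher and 22.5% lower, and the counts of each list stand beside these. In the naive network 2 of 13 measured genes were higher and 0 lower than in primary neurons in both iPSC-derived groups, with a median difference of 0.37 in treated cells and 0.27 in control cells. The genes were Klf5, 1.22 higher in treated cells (adjusted p = 0.00185) and 1.35 in control cells (adjusted p = 8.92e-04), and Tbx3, 1.27 higher in treated cells (adjusted p = 1.38e-05) and 1.04 in control cells (adjusted p = 6.63e-05). Dppa3, a maternal and germ cell protein, gave 2.78 in treated cells (adjusted p = 0.0691) and 2.62 in control cells (adjusted p = 0.0821). It lay at 7.19 to 9.59 on the 8 arrays numbered 1 to 4 and at 5.00 and 4.56 on treated and control array 5.

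Of 12 measured further embryonic stem cell genes, 5 were higher and 1 lower in treated cells, beside 19.9% and 21.3% of all genes. In control cells 4 were higher and 1 lower, beside 19.3% and 22.5% of all genes. The medians were 1.26 in treated cells and 1.01 in control cells. Fbxo15, an F-box gene first described as an OCT4 target, gave 8.72, 9.545, 8.22, 7.99 and 4.23 on treated arrays 1 to 5 and 8.78, 8.85, 8.33, 7.64 and 4.58 on control arrays 1 to 5, against 4.05 to 4.22 on the primary arrays. Its difference was 3.61 in treated cells (adjusted p = 0.0436) and 3.50 in control cells (adjusted p = 0.0485). Sox2, which neural progenitors express as well, was 1.91 higher in treated cells (adjusted p = 0.00104) and 1.86 higher in control cells (adjusted p = 0.00123). Sox2 stayed above the primary range on the arrays numbered 5, at 8.05 in treated and 7.96 in control cells against at most 7.23. Fbxo15 there lay above its own primary range too, at 4.23 and 4.58 against at most 4.22. Both Sox2 and Fbxo15 were lower on the arrays numbered 5 than on the 8 others, which gave 8.15 to 9.19 for Sox2. Of the 12 measured genes 11 split so, against 11.7% of all genes. Dppa2 gave 1.65 in treated cells (adjusted p = 0.0835) and 1.77 in control cells (adjusted p = 0.0645).

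Among 10 measured genes of the LIN28 and let-7 axis, 3 were higher and 1 lower in treated cells, beside 19.9% and 21.3% of all genes. In control cells 4 were higher and 1 lower, beside 19.3% and 22.5% of all genes. The medians were 0.42 in treated cells and 0.40 in control cells. Igf2bp1, an mRNA-binding protein and let-7 target, was 1.84 higher in treated cells (adjusted p = 0.012) and 1.69 in control cells (adjusted p = 0.0186). Arid3a was 1.25 higher in treated cells (adjusted p = 0.0391) and 1.29 in control cells (adjusted p = 0.0333). Dis3l2, the exonuclease that degrades uridylated let-7 precursors, fell by 0.57 in treated cells (adjusted p = 0.00208) and fell by 0.62 in control cells (adjusted p = 0.00112). Lin28b, the paralog of Lin28a, gave 0.16 in treated cells (adjusted p = 0.57) and -0.08 in control cells (adjusted p = 0.781).

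All 6 genes of the LIF and STAT3 pathway, which sustains mouse embryonic stem cells and acts in many other tissues, were higher in both groups. Over all genes, 19.9% were higher in treated cells and 19.3% in control cells. The medians of the list were 2.08 in treated cells and 1.90 in control cells. The receptor gene Lifr was 2.67 higher in treated cells (adjusted p = 9.95e-05) and 2.80 in control cells (adjusted p = 6.69e-05), and its partner Il6st was 2.65 higher in treated cells (adjusted p = 3.39e-08) and 2.71 in control cells (adjusted p = 2.95e-08). Lif itself was 2.17 higher in treated cells (adjusted p = 9.62e-06) and 1.92 in control cells (adjusted p = 2.60e-05). These genes stayed high on the arrays numbered 5, where the members were low, with a list mean of 9.01 on treated array 5 and 8.99 on control array 5.

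Among epiblast and Nodal genes, 10 were measured. In treated cells 0 were called, and in control cells 0 were higher and 3 lower, beside 19.3% and 22.5% of all genes, with medians of -0.02 and -0.05. Acvr2b, a receptor of Nodal-type ligands, fell by 0.65 in control cells (adjusted p = 0.015), and the treated difference was -0.40 (adjusted p = 0.101). The Nodal co-receptor Cfc1 fell by 0.48 in control cells (adjusted p = 0.00901), and the treated difference was -0.295 (adjusted p = 0.0763). Gdf3 gave 0.85 in treated cells (adjusted p = 0.138) and 0.60 in control cells (adjusted p = 0.279).

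Without both arrays numbered 5, the naive network had 4 genes higher and 0 lower in each iPSC-derived group, the further embryonic stem cell genes 7 higher and 1 lower in each, and the LIN28 axis 6 higher and 1 lower in each. The epiblast list had 2 higher and 0 lower in treated cells and 2 higher and 3 lower in control cells. Over all genes, 22.9% were higher and 22.8% lower in treated cells and 22.5% higher and 23.6% lower in control cells. The lists were chosen with earlier results of these data known and carry no test of their own.

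**Figure D3:**
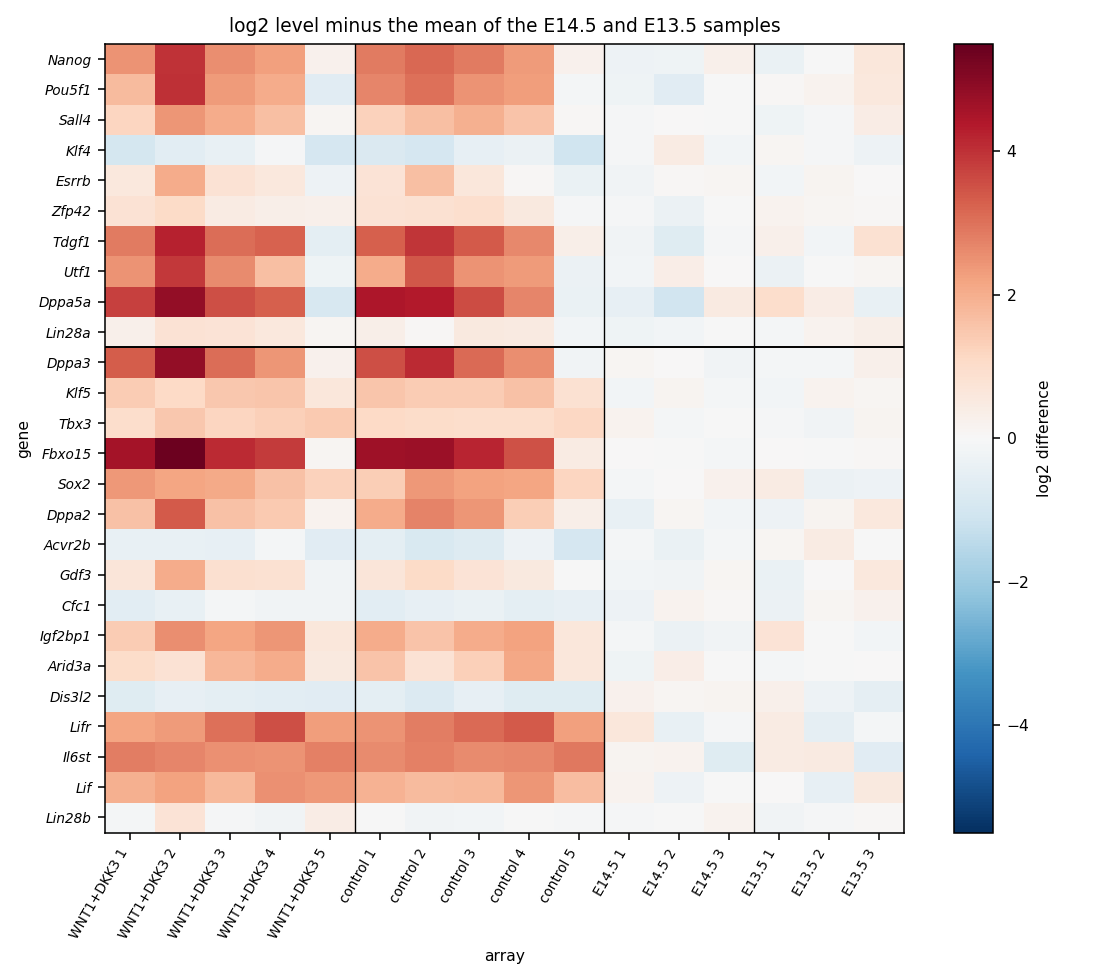
Log2 level minus the mean of the E14.5 and E13.5 samples, as colour, for the 10 members (above the line) and 16 other genes of the pluripotent state (y axis) on each of the 16 arrays (x axis). Red is above the primary mean and blue below, and vertical lines part treated (WNT1+DKK3), control, E14.5 and E13.5 arrays. Fbxo15 and Dppa3 pale on the arrays numbered 5 as Nanog does, while Il6st and Lif stay red there.

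The mean levels of germ cell and epithelial markers were lower on the arrays numbered 5 than on the other iPSC-derived arrays. Those of fibroblast, dopaminergic and pan-neuronal markers were higher there. On the 8 arrays numbered 1 to 4, 6 of 10 germ cell and 8 of 8 epithelial markers lay above both arrays numbered 5, against 11.7% of all genes. Both means stayed above the primary arrays, and the epithelial mean was 7.81 on treated and 8.14 on control array 5 against at most 5.88. The mean of 10 germ cell markers was 6.80 to 7.76 on treated arrays 1 to 4 and 5.73 on treated array 5, 6.79 to 7.35 on control arrays 1 to 4 and 5.55 on control array 5, and 5.36 to 5.48 on the primary arrays. Dazl, a germ cell RNA-binding protein, gave 7.84, 9.57, 8.23, 7.82 and 5.08 on treated arrays 1 to 5 and 8.53, 8.72, 8.48, 7.68 and 4.93 on control arrays 1 to 5, against 4.60 to 4.99 on the primary arrays. Over the list 2 of 10 genes were higher and 1 lower than in primary neurons in both groups. Over all genes, 19.9% were higher and 21.3% lower in treated cells, and 19.3% higher and 22.5% lower in control cells. Without both arrays numbered 5, 7 germ cell markers were higher in treated cells and 6 in control cells, beside 22.9% and 22.5% of all genes. The part of germ cell markers in the levels of the members was not tested.

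Epithelial markers averaged 7.81 to 9.96 on treated arrays, 8.14 to 9.82 on control arrays and 5.64 to 5.88 on primary arrays, with 7 of 8 called higher in both groups. Fibroblast and mesenchyme markers averaged 8.86 to 9.79 on treated arrays, 9.02 to 9.81 on control arrays and 5.62 to 5.99 on primary arrays, with 11 of 11 called higher in both groups. Col1a1, a collagen of fibroblasts, was 3.00 higher in treated cells (adjusted p = 3.53e-05) and 2.98 in control cells (adjusted p = 3.64e-05). All 10 dopaminergic and all 10 pan-neuronal markers were lower than in primary neurons in both groups. Over all genes, 19.9% were higher and 21.3% lower in treated cells, and 19.3% higher and 22.5% lower in control cells. The pan-neuronal mean was 8.51 on treated array 5 and 6.09 to 6.43 on treated arrays 1 to 4, 8.10 on control array 5 and 6.18 to 6.67 on control arrays 1 to 4, and 10.40 to 10.77 on primary arrays. The fibroblast mean was highest on the array numbered 5 in both groups, at 9.79 against 8.86 to 9.39 on the other treated arrays and at 9.81 against 9.02 to 9.59 on the other control arrays. The epithelial mean was lowest there in both groups. What share these cells have in the signal of the members was not tested.

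**Figure D4:**
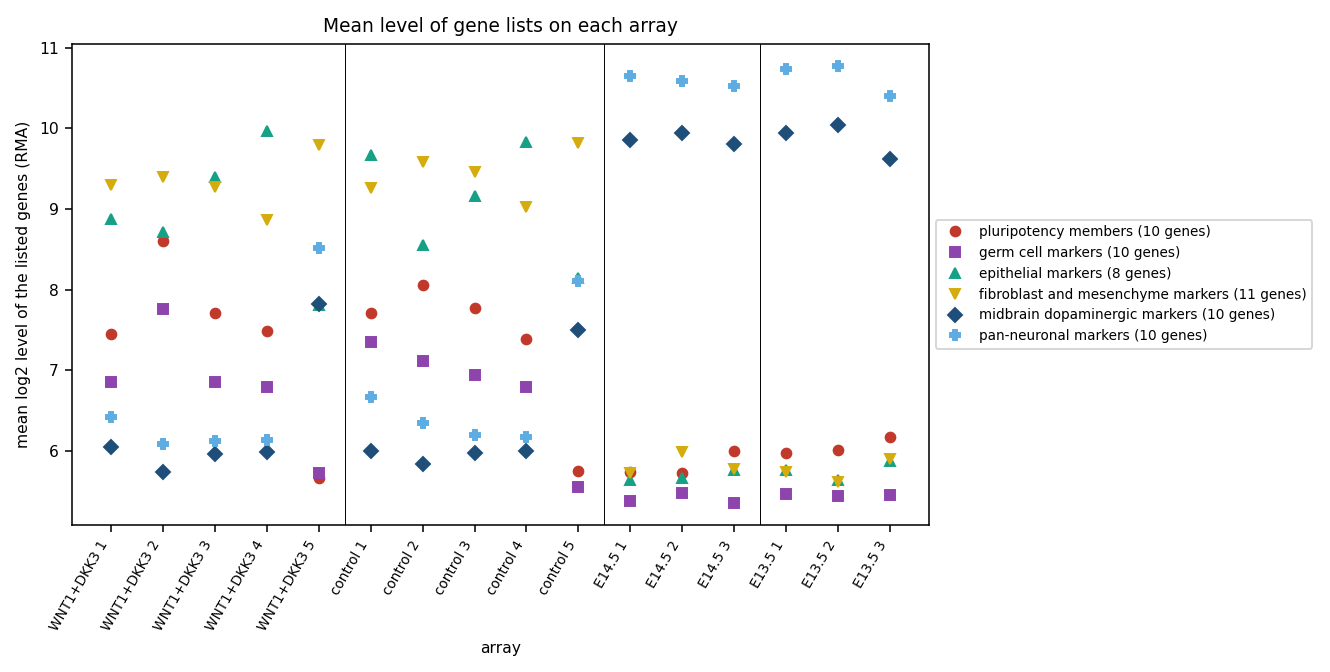
Mean deposited log2 level (y axis, RMA) of 6 gene lists on each array (x axis), with treated (WNT1+DKK3) arrays first, then control, E14.5 and E13.5 arrays. Points of 1 list are to be compared across arrays and not with another list. The pluripotency and germ cell lists drop on both arrays numbered 5, at 5.66 and 5.73 on treated array 5, while the dopaminergic list rises there to 7.83.

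Genes with the pattern most like a member were named by Pearson's r among 9588 genes. Over the 10 iPSC-derived arrays the genes most like Nanog were Dazl (r = 0.995), Hells (0.994), Bub1 (0.991), Rrm2 (0.991) and Cdc25a (0.988). Those most like Pou5f1 were Cks2 (0.994), Dlgap5 (0.994), Hells (0.99), Kpna2 (0.987) and Mcm5 (0.987). The 10 points include the 2 low arrays numbered 5, which raise any such r.

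Over the 8 arrays numbered 1 to 4 the genes most like Nanog were Tuba3a (0.989), Prdx1 (0.986), Gjc1 (0.982), Cyct (0.981) and Dazl (0.981), and those most like Pou5f1 were Dlgap5 (0.988), Atp5pb (0.984), Cks2 (0.983), Chek1 (0.982) and Rfc3 (0.977). Dazl was in both Nanog lists, and Cks2 and Dlgap5 were in both Pou5f1 lists. These r values are descriptions from a search over many genes and carry no test.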

How the data were processed

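The data are 16 Affymetrix arrays of total RNA. Per the labels' protocols, RNA was extracted with RNeasy kits, and the Ovation PicoSL WTA System V2 amplified it before the Encore Biotin Module labelled it. The deposited values are log2 expression levels, and the submitters' processing notes name RMA and Affymetrix Expression Console 1.2. RMA makes the arrays' distributions alike, which can hide a global shift, and amplification from small inputs can distort levels. The table held 35556 probe sets, of which 23410 were in the platform annotation, 21789 with 1 symbol and 1621 with several, and 12146 were unnamed here. Symbols of 21698 probe sets were updated by Entrez ID through RefSeq (GRCm38.p6, names and promoters only). For each of 19938 genes the probe set with the highest mean over 16 arrays was used, and 999 genes had more than 1. No array pair was identical.

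All genes entered each fit by limma 3.58.1 (R 4.3.3), and a Benjamini-Hochberg adjusted p under 0.05 was called. Treated and control cells were compared over 10 arrays, and both with primary neurons over 12 samples, technical arrays averaged. The number of arrays and the spread between them limit the precision. Alternatives were a filter on the 25% dimmest genes, median scaling, mean probe sets, a variance trend, single stages, a random stage block, a replicate block and leaving arrays out. Besides the members, the named genes were the 3 of each pathway list with the largest difference in control against primary, Sox2, Lin28b, Th, Col1a1 and the 5 genes most like Nanog or Pou5f1. Dazl was the germ cell marker named, because a result turned on it. The members, lists and tests were chosen with earlier results of these data known.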

Additional observations from a re-analysis of the deposited data

Results flagged for a closer look

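In 6 of 52 sets of 5 arrays checked, 1 gene in 1 iPSC-derived group, a single array lay far from the other 4: its gap to the nearest divided by the whole range passed Dixon's critical value of 0.71. About 1 set in 20 passes by chance where sets are independent. These sets share the same arrays, and their genes were chosen with earlier results known, so that rate does not apply here. The array was number 5 and the lowest in each case. The ratio was 0.726 for Dppa5a and 0.711 for Tdgf1 among treated arrays. Among control arrays it was 0.724 for Nanog, 0.767 for Pou5f1, 0.711 for Klf5 and 0.716 for Fbxo15. The cause was not tested.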

How the results depend on the processing

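Treated against control kept 0 genes called in every alternative except that the replicate block called 1 gene higher. With that block the 95% interval of treated minus control was -0.36 to 0.35 for Nanog and -0.44 to 0.38 for Dppa5a. Equal replicate numbers are not said to be pairs, so the fit reported had no such block. Deviations of same-numbered arrays correlated at 0.0448 (number 1), 0.52 (2), 0.435 (3), 0.718 (4) and 0.798 (5). Spread shared by equal numbers therefore stayed in the residual of the fit reported. Treated arrays numbered 2, 4 and 5 correlated best with their own number, and those numbered 1 and 3 did not. Without both arrays numbered 5 the treated minus control difference changed sign for Nanog (0.00125), Dppa5a (0.083) and Tdgf1 (0.047). Leaving out 1 array at a time gave differences from -0.52 to 0.51 for Nanog, -0.71 to 0.47 for Pou5f1, -0.86 to 0.91 for Dppa5a, -0.20 to 0.052 for Zfp42, -0.13 to 0.47 for Esrrb, -0.73 to 0.64 for Tdgf1, -0.49 to 0.66 for Utf1, -0.00795 to 0.22 for Klf4 and -0.13 to 0.52 for Sall4. None of these was called.

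Against primary neurons, members called higher in treated cells numbered 0 in the fit reported, 2 without the dimmest genes, 2 with a variance trend, 8 with a random stage block, 8 without both arrays numbered 5, 9 with the replicate block and 0 to 7 leaving out 1 array. Members called lower numbered 0, then 1 with the random block, 1 with the replicate block and 0 to 1 leaving out 1 array. In control cells members higher numbered 0, then 1 without the dimmest genes, 1 with a trend, 7 with the random block, 7 without both arrays numbered 5, 8 with the replicate block and 0 to 7 leaving out 1 array. The 1 member lower became 0 with medians subtracted, 0 with either stage alone, 0 without both arrays numbered 5 and 0 to 1 leaving out 1 array. The random block estimated a correlation of -0.0476 and so counted technical arrays nearly as separate samples. Genes called lower in treated cells were 4241, or 2722 with E13.5 alone and 2622 with E14.5 alone, and in control cells 4491, or 2847 and 2743 with the same stages, where fewer samples were used. Without both arrays numbered 5 the replicate number test called 441 in place of 3076 genes and 2 in place of 8 members. Leaving out 1 primary array gave 49 to 70 genes higher and 19 to 38 lower at E14.5, against 35 and 13, and 0 to 1 member lower.

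Each iPSC-derived group had 5 arrays and the primary neurons 2 samples, which limits precision, as does the spread between replicate numbers. Zfp42, below its array's median throughout, is limited by its dim signal; no background level was used here.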

Other observations

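Of 9 measured endoderm markers, 5 had their highest levels on the arrays numbered 3 and 4 in both iPSC-derived groups (Gata4, Gata6, Sox17, Sox7 and Cubn), and Foxa1, Afp, Dab2 and Amn did not. The share of all genes with this order was not counted, so the count describes these markers and is no result about endoderm. Gata4, an endoderm and heart transcription factor, gave 6.26, 6.60, 8.20, 8.22 and 6.14 on treated arrays 1 to 5 and 6.18, 6.50, 7.89, 8.26 and 6.31 on control arrays 1 to 5, against 5.85 to 6.63 on the primary arrays. Cubn, an endocytic receptor of visceral endoderm, gave 5.01, 5.34, 7.095, 6.86 and 5.10 on treated arrays and 5.30, 5.64, 6.77, 6.57 and 5.05 on control arrays, against 5.58 to 6.04 on the primary arrays. Foxa1 was highest on the array numbered 5 in both groups, at 7.37 in treated and 7.11 in control cells. On treated array 2, 9 of the 10 pluripotency genes were highest, and the share of all genes highest there was not counted. Replicate numbers differed for Gata4 (adjusted p = 9.73e-05) and Cubn (adjusted p = 5.29e-04) in limma's F test over all genes, and the genes were chosen after their values were seen.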
